A study of Mus musculus with 21 samples.

Results

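The cells described here were fibroblasts of the primary melanoma microenvironment in which transcripts of Tnc, Inhba, Fbn2, Slc20a1 and Vegfa were found together. A fibroblast was a barcode with a unique molecular identifier count (UMI, 1 sequenced mRNA molecule) of at least 3 of Col1a1, Col1a2, Col3a1, Dcn and Lum, no UMI of the leukocyte gene Ptprc or the endothelial gene Pecam1, and less than 0.5% of its UMIs from the 4 melanocyte genes Pmel, Dct, Mlana and Tyrp1. Members were selected on their values: they held a UMI of at least 2 of the 5 named genes. Of 992 primary tumor fibroblasts, 569 were members, 202 held exactly 1 of the genes and 221 held none. They came from 6477 barcodes of the primary tumor and 100359 barcodes of the whole series, with identical libraries counted once.

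In the model, fragments of MT-ret melanoma were transplanted under the skin of young adult male and female mT/mG mice, whose own cells carry membrane tdTomato, so that host stroma was red and the engrafted melanoma (MM) cells were not. The primary tumor and lung metastasis groups were tdTomato+ sorted cells of the tumor microenvironment (TME), in part also depleted of CD45+ leukocytes, and the unchallenged lung group came from lungs without melanoma. No Cre was used to mark fibroblasts, so any host cell could enter a library, and the labels do not give the sort of each library. The label of every primary tumor sample names lung as its tissue, whereas library names state skin tumor. Among 9 lung epithelial markers, the members held a summed 3.00 CPM (the UMIs of a gene scaled to a common total of UMIs) in replicate 4, 0 CPM in replicate 5 and 4.19 CPM in replicate 6, with the surfactant gene Sftpa1 and the secretoglobin gene Scgb1a1 at 0 in each.

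Fibroblasts build and remodel the matrix between cells, and those of a tumor are called cancer-associated fibroblasts (CAFs). Tenascin-C, the product of Tnc, is a matrix glycoprotein of wounds and tumor stroma. Inhba encodes the subunit of activin A, a ligand that acts through SMAD proteins. Fbn2 encodes a fibrillin of microfibrils, Slc20a1 a sodium-dependent phosphate carrier, and Vegfa the principal growth factor of blood vessels, whose transcription rises in low oxygen through the HIF transcription factors. On GRCm38 (GENCODE vM21), Tnc spans chr4:63959785-64047015, Inhba chr13:16011851-16031621, Slc20a1 chr2:129198764-129211616 and Vegfa chr17:46016993-46032369.

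Replicate 1-3 held 7 members among 15 fibroblasts, replicate 4 held 104 among 162, replicate 5 held 70 among 123 and replicate 6 held 388 among 692. The share was 46.7% in replicate 1-3, 64.2% in replicate 4, 56.9% in replicate 5 and 56.1% in replicate 6, a mean of 56.0% ± 7.19 (SD, n = 4 libraries). All 4 primary tumor libraries lay above the other tissues, which the choice of these genes favors, and no test was made. In lung metastasis the share was 11.9% in replicate 5 and 32.5% in replicate 6. In unchallenged lung it was 17.1% in replicate 4, 9.92% in replicate 5 and 2.42% in replicate 6. In all, 40 metastasis cells and 24 unchallenged lung cells met the same rule.

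A deeper cell has more chances to show a UMI, so each fibroblast was also thinned to 2000 UMIs, and shallower cells were left out. The share was then 46.2% in replicate 1-3, 44.9% in replicate 4, 42.5% in replicate 5 and 70.3% in replicate 6 of the primary tumor. Replicate 6 lost 278 of its 692 fibroblasts at this step, against 15 in replicate 4 and 10 in replicate 5. In lung metastasis the thinned share was 3.35% and 15.8%, and in unchallenged lung 13.2%, 0% and 2.70%. For the share of 0%, the exact 95% interval reached 3.21%, and it covers counting error only.

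**Figure D1:**
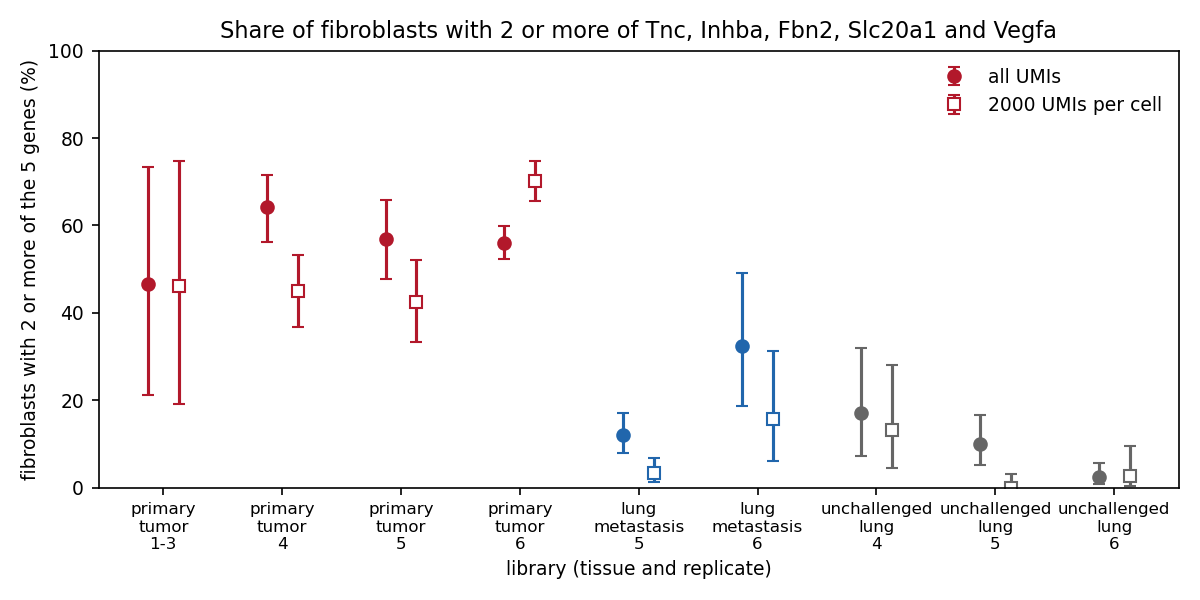
Share of fibroblasts with 2 or more of the 5 genes (%, y axis) in each library with at least 10 fibroblasts (x axis), from all UMIs (filled circles) and from 2000 UMIs per cell (open squares), with exact 95% binomial intervals. The primary tumor libraries lie at 46.7% to 64.2% from all UMIs, and the other tissues at 2.42% to 32.5%.

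The level of each gene was also read in all fibroblasts of a library, members or not. Tnc had 624 CPM in replicate 1-3, 393 in replicate 4, 797 in replicate 5 and 867 in replicate 6 of the primary tumor, against 48.8 and 109 CPM in lung metastasis and 1.33 to 25.5 CPM in unchallenged lung. Fbn2 had 218, 296, 284 and 394 CPM in the primary tumor in the same order, 25.7 and 11.7 CPM in metastasis, and no UMI in the 3 unchallenged lung libraries. For these genes the primary tumor libraries did not overlap with those of the other tissues, which the choice of the genes favors. Inhba lay at 273 to 530 CPM in the primary tumor, 57.1 and 180 CPM in metastasis and 11.2 to 30.7 CPM in unchallenged lung. Slc20a1 lay at 101 to 453 CPM in the primary tumor and 8.52 to 40.2 CPM in unchallenged lung. In metastasis it had 24.0 and 97.6 CPM, so that replicate 6 came near primary tumor replicate 4. Vegfa overlapped between tissues: its primary tumor range was 214 to 733 CPM, while unchallenged lung replicate 4 held 332 CPM and metastasis replicate 6 held 226 CPM.

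**Figure D2:**
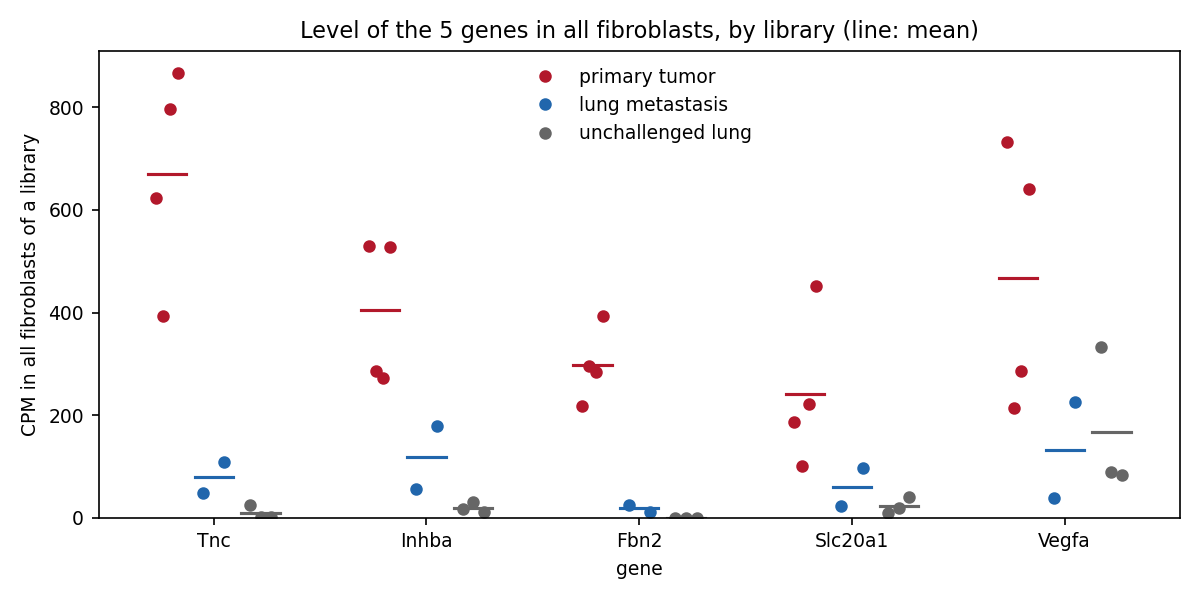
CPM (y axis) of the 5 genes (x axis) in all fibroblasts of each library, with 1 point per library and a line at the mean of a tissue. Fbn2 is at 0 in the 3 unchallenged lung libraries and at 218 to 394 CPM in the primary tumor, whereas the tissues overlap for Vegfa.

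Free RNA in a droplet can give a stray UMI, so the same genes were read in endothelial barcodes of the primary tumor libraries. Macrophage barcodes were read in replicate 1-3 and replicate 4 alone, so the other primary tumor libraries have no macrophage values. Fbn2 had 0 to 21.1 CPM in endothelial barcodes and 0 to 1.18 CPM in macrophage barcodes, against 392 to 509 CPM in members. Tnc had 14.1 to 132 CPM in endothelial barcodes, against 561 to 1455 CPM in members. In replicate 4, Vegfa was found in 12.7% of 2285 macrophage barcodes at a median of 5216 UMIs, and in 61.5% of the 104 members at a median of 4556 UMIs. Slc20a1 had 39.2 to 127 CPM in endothelial barcodes and 147 to 566 CPM in members. In replicate 4 it was found in 22.9% of 83 endothelial barcodes at a median of 7758 UMIs and in 48.1% of members, and in replicate 6 in 35.1% of 37 barcodes at a median of 4691 UMIs and in 61.6% of members. The level in members is raised by their selection and is a description.

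Members carried different sets of the 5 genes. All 5 were found in 80 cells, and 80 further cells held all but Fbn2. Tnc and Vegfa were the most frequent pair, found together in 312 members (54.8%), followed by Tnc and Inhba in 303 (53.3%). The pair of Fbn2 and Slc20a1 was the least frequent, in 185 members (32.5%). Pooled over libraries, the number of genes found moved with depth. Medians were 1203 UMIs with none, 1898 with exactly 1, 4573 with exactly 2 and 7841 with all 5. The 157 cells just inside the threshold of 2 genes were thus deeper in the pool than the 202 cells just outside it. By library the order differed. Medians with exactly 2 and exactly 1 were 5705 and 4741 UMIs in replicate 4, and 4755 and 4892 in replicate 5. In replicate 6 they were 3734 and 1297.5.

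Members were next compared with the cells holding none of the 5 genes in the same library. UMIs were summed per library and arm, and the arms were fitted with edgeR with the library as a block. Replicates 4, 5 and 6 had at least 10 cells in each arm, with 104, 70 and 388 members against 21, 29 and 164 cells, and replicate 1-3 stayed out. In the primary tumor, 311 of 7702 genes tested (4.04%) were higher in members and 293 (3.80%) lower at an adjusted p under 0.05. As the cells were selected within these libraries, the calls and fold changes of the primary tumor are a description of the members and no independent test. The arms of replicate 6 also differed in quality, with a median of 5982 UMIs in members and 1095 in the other cells, and 9.79% and 1.60% mitochondrial UMIs. Their median share of UMIs from the 4 melanocyte genes was 0.120% and 0.337%. With arms matched in depth, 49 genes were higher and 42 lower of 3924 tested, and 85 of these were also called without matching. Metastasis replicate 6 had too few cells for this matching and was not in that fit. Without replicate 4, 1018 genes were called, without replicate 5, 151, and without replicate 6, 150. DESeq2, another tool for count data, called 90.

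**Figure D3:**
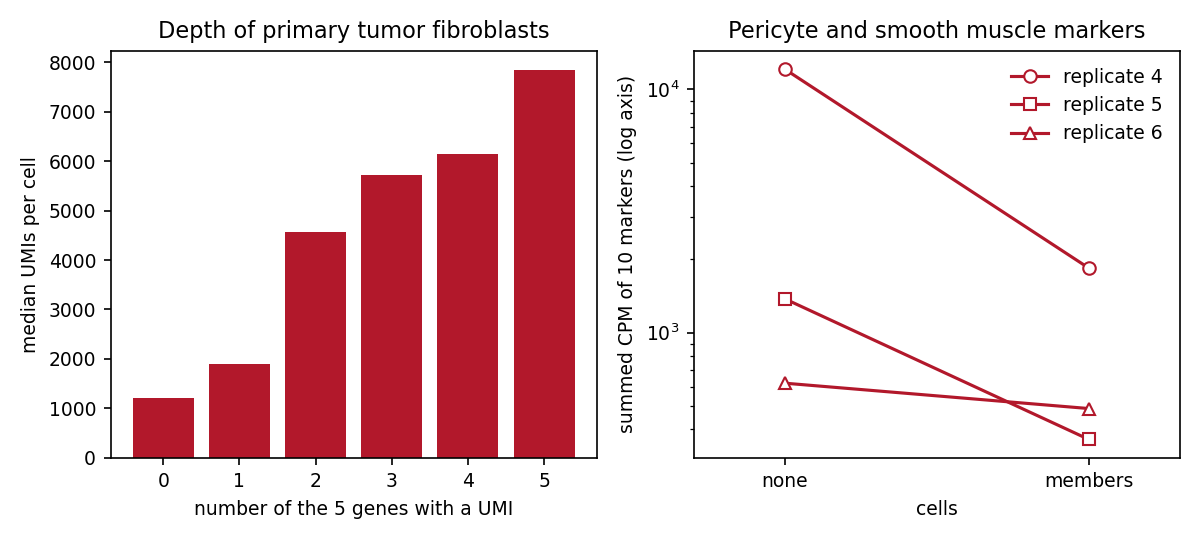
Left, median UMIs per primary tumor fibroblast, pooled over libraries (y axis), by the number of the 5 genes found (x axis). They ran from 1203 with none to 7841 with all 5. Right, summed CPM of 10 pericyte and smooth muscle markers (y axis, log axis) in cells with none of the genes and in members, with 1 line per library.

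The strongest differences that held with matched depth included a secreted matrix protein, a disulfide-forming enzyme and a lipid transporter. Spp1, which encodes osteopontin, had 4671 CPM in members and 245 in the other cells of replicate 4, 2197 and 99.3 in replicate 5, and 4336 and 1853 in replicate 6, a log2 fold change of 3.23 ± 0.52 (SE). Members were higher in each library and the groups did not overlap, although the other cells of replicate 6 came near the members of replicate 5. With DESeq2 the fold change was 3.31 and missed the threshold (adjusted p = 0.090). Ero1l, an oxidase of disulfide formation in the endoplasmic reticulum, had 299, 704 and 647 CPM in members of replicates 4, 5 and 6, and 36.3, 33.1 and 128 CPM in the other cells (3.05 ± 0.43). Abca8a, an ATP-binding cassette transporter, had 290, 246 and 252 CPM in members, and 0, 0 and 44.0 CPM in the other cells (3.79 ± 0.53). The groups did not overlap for Ero1l and Abca8a.

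Other genes among the 10 largest rises were Ptprn (4.28 ± 0.74), the fibrillar collagen gene Col11a1 (4.20 ± 0.76), the chemokine genes Cxcl1 (3.26 ± 0.48) and Cxcl5 (2.91 ± 0.63), the RNA-binding protein gene Igf2bp2 (3.17 ± 0.63) and the matricellular gene Ccn4 (2.88 ± 0.65). Ptprn and Col11a1 each had 2 UMIs in the other cells, which gives pooled ratios of 21.9 (exact 95% interval 6.01 to 182) and 16.8 (4.60 to 140). With matched depth 4 of these rises missed the threshold, where Igf2bp2 was at 3.05, Col11a1 at 2.84, Ccn4 at 2.27 and Cxcl1 at 1.69. Among the genes lower in members, Gja4 at -2.94 and Clu at -2.17 missed it too. With DESeq2, the rises of Col11a1, Igf2bp2, Ccn4 and Cxcl5 missed the threshold. Cxcl5 and Ccn4 also missed it without replicate 5, and Igf2bp2 without replicate 6.

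Genes lower in members included markers of other cell types. Rgs5, a pericyte gene, had 836, 38.0 and 49.9 CPM in members and 8554, 722 and 217 CPM in the other cells of replicates 4, 5 and 6 (log2 fold change -3.20 ± 0.43). The keratin genes Krt8 (-4.86 ± 0.60) and Krt18 (-4.26 ± 0.59), the connexin gene Gja4 (-4.46 ± 0.67), the chaperone gene Clu (-4.11 ± 0.53) and Dlk1 (-3.86 ± 0.55) were lower as well. Krt18 had 0 CPM in members and 669 CPM in the other cells of replicate 5. Without this replicate it was at -2.38 and missed the threshold, as it did with DESeq2. Gja4 and Dlk1 missed it without replicate 4, at -3.61 each. Of the pericyte and smooth muscle list 7 of 10 markers were lower, of the mesothelial list 6 of 6 tested, and of the endothelial list 6 of 7 tested. With matched depth these counts were 4 of 10, 1 of 6 and 0 of 6. The summed pericyte level was 1845 CPM in members and 12097 CPM in the other cells of replicate 4, 364 and 1377 in replicate 5, and 488 and 620 in replicate 6. Counted per cell the order differed between libraries. In replicate 4, 42.3% of members and 66.7% of the other cells held 2 or more pericyte markers, in replicate 5 32.9% and 20.7%, and in replicate 6, where members were far deeper, 36.6% and 10.98%. Mesothelial markers summed to 3.00, 5.06 and 15.5 CPM in members and 63.4, 516 and 143 CPM in the other cells. Cells that held 2 or more markers of 1 of these types were also left out of both arms. Primary tumor replicate 4 and metastasis replicate 6 then had fewer than 10 cells in an arm and dropped out, as did the unchallenged lung library at this limit and not at a limit of 3 markers. In the remaining replicates 5 and 6, 139 genes were higher and 257 lower of 5417 tested, and with a limit of 3 markers 287 and 405 of 7209. With all cells of the same libraries the counts were 558 and 816 of 7543, and 615 and 758 of 8197. The Spp1 difference was 1.60 with cells of 2 markers left out and 2.43 with all cells of those libraries. Below, values with such cells left out stand beside values with all cells of the same libraries. The part of these cell types in the results was not tested.

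**Figure D4:**
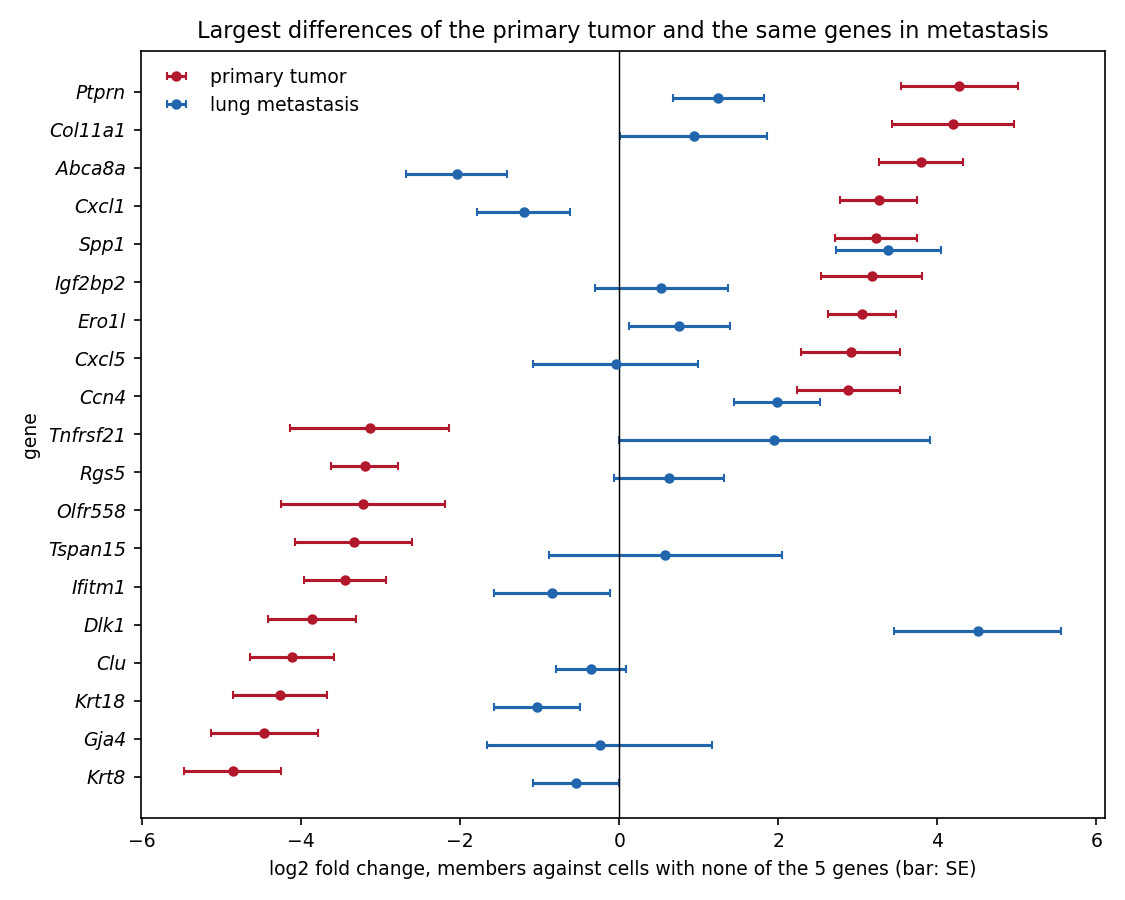
log2 fold change (x axis, bars are SE) of members against cells with none of the 5 genes for genes among the 10 largest rises and the 10 largest falls of the primary tumor, and for the same genes in lung metastasis. Spp1 is 3.23 in the primary tumor and 3.38 in metastasis, Dlk1 is -3.86 in the primary tumor and above 0 in metastasis, and Olfr558 has no metastasis point because it had no UMI there.

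Of the hypoxia and glycolysis list, 13 of 32 genes tested were higher in members and none lower, with a median log2 fold change of 1.23 against 0.06 over all genes tested. Besides Ero1l they included the stress response gene Ddit4 (2.45 ± 0.49), the hypoxia-induced gene Ndrg1 (2.40 ± 0.44), the hydroxylase gene Egln3 (3.18 ± 0.96) and the glucose transporter gene Slc2a1. Egln3 had 120 UMIs in members and 2 in the other cells, a pooled ratio of 9.3 (exact interval 2.52 to 77.7). It missed the threshold with DESeq2, without replicate 5 and without replicate 6, and was not tested with matched depth. Of the list, 6 of 28 genes were higher with matched depth, at a median of 1.24. Without replicate 5, 4 of 32 were higher. Leaving out cells of 2 or more other markers gave 4 of 30, against 13 of 32 with all cells of those libraries, and with the limit of 3 it was 9 of 32 against 14 of 32.

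Genes of activin and TGF-beta signaling followed, with 7 of 22 higher and none lower. Skil, a SMAD corepressor, had 152, 220 and 266 CPM in members of replicates 4, 5 and 6 and 27.2, 86.1 and 55.0 CPM in the other cells (1.93 ± 0.42). The groups did not overlap. Skil kept its direction but missed the threshold with DESeq2 (1.905) and without replicate 6 (1.74). With cells of 2 or more other markers left out it missed it too, at 1.40 against 1.76 with all cells of those libraries. Tgfbi, a matrix protein induced by TGF-beta, was higher by 2.07 ± 0.41. In replicates 5 and 6 it was higher by 0.18 with cells of 2 or more other markers left out, by 1.29 with the limit of 3, and by 1.49 and 1.55 with all cells of those libraries. Smad3, Smad7, Tgfb1 and Tgif1 were among the others called. With matched depth 2 of 17 were called, and without replicate 5, 2 of 22.

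Of the other collagens, 8 of 20 were higher and none lower, among them Col15a1 (1.90 ± 0.39), Col16a1 (1.41 ± 0.39) and Col18a1 (1.39 ± 0.39). Col15a1 had 830, 686 and 703 CPM in members and 390, 99.3 and 172 CPM in the other cells. With matched depth 1 of 20 was called, and without replicate 5, 1 of 20. Col15a1 (1.54), Col16a1 (1.02) and Col18a1 (0.79) missed the threshold with matched depth, and without replicate 5 as well. Col16a1 and Col18a1 also missed it with DESeq2 and without replicate 6. Matricellular genes were higher in 6 of 18 cases, and with matched depth or without replicate 5 in 2 of 18. With cells thinned to 2000 UMIs, 2 of 13 were higher and Sparc, Ccn1, Ccn2 and Tnxb lower. Over all genes, that fit had 159 higher and 162 lower of 1428 tested. Of 22 microfibril and elastic fiber genes none was called with edgeR or DESeq2, 8 were at an unadjusted p under 0.05, and Fbn1 was at 0.78 ± 0.38. Without replicate 4, Eln, Mfap5, Fbln1, Fbln5 and Efemp1 were lower, and with matched depth Eln was. Over all genes, the fit without replicate 4 had 367 higher and 651 lower of 7482 tested. Of 16 contractile genes tested only Myl9 was called (-1.18 ± 0.40), and it missed the threshold with matched depth and without any 1 of the 3 replicates. Of 12 cell cycle genes tested none was called with edgeR or DESeq2, with 0 at an unadjusted p under 0.05, and all 12 had fold changes at or below 0, with a median of -0.64. Without replicate 4, Mki67, Cenpf and Hmgb2 were lower.

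Inflammatory genes went both ways: Cxcl1, Cxcl5, Ccl2, Ccl11 and Ptgs2 were higher and the complement genes C3 (-1.90 ± 0.41) and C4b lower, of 24 tested. With matched depth Cxcl5, Ccl11 and Saa3 were higher of 17, and C3 was at -1.86 and missed the threshold. Leaving out cells of 2 or more other markers gave 2 higher and none lower of 21, against 6 and 2 of 23 with all cells of those libraries. Of 17 genes of the Pi16 adventitial fibroblast program, Pi16, Ly6a, Ly6c1 and Clec3b were lower and the transcription factor gene Ebf2 higher. With matched depth Pi16 alone was called, lower, of 16 tested. Clec3b had 4.50, 220 and 49.1 CPM in members and 36.3, 1026 and 95.4 CPM in the other cells of replicates 4, 5 and 6. Replicate 5 thus held the most Clec3b in either arm. Of the phosphate and mineralization list, Enpp1 and Ank, which supply and export pyrophosphate, and the bone transcription factor gene Runx2 were higher of 8 tested, and Bmp4 was lower. Bmp4 had 0 UMIs in members and 0, 1 and 6 UMIs in the other cells of replicates 4, 5 and 6, and it missed the threshold without replicate 6, with matched depth and with DESeq2. Runx2 had 63.0, 129 and 169 CPM in members and 54.4, 6.62 and 7.34 CPM in the other cells, so that replicate 4 showed little difference. With matched depth none of 5 genes of this list was called.

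Of the vascular factors, Angpt1 (2.22) and Pdgfra (1.35), a growth factor receptor of fibroblasts that the list shares with the fibroblast markers, were higher and Angpt2 (-1.91) and Vegfd (-1.73) lower, of 18 tested. Angpt2 had 33.0, 0 and 17.2 CPM in members and 0, 146 and 58.7 CPM in the other cells, so that replicate 4 ran the other way, and without replicate 5 it was at -0.61 and missed the threshold. Without replicate 5 or 6 none of the list was called. With matched depth Vegfd alone was called, of 15. Of 17 integrin and focal adhesion genes Itga5 and Itgb3 were higher, and with matched depth none of 14 was called. Of 23 immediate early and heat shock genes 1 was called, Hspa1b, and of 22 proteases and inhibitors 1, Mmp3, shares of 4.35% and 4.55% against 7.84% of all genes tested. With cells thinned to 2000 UMIs, Fos, Klf2, Klf4 and Hspa8 were lower and Ier3 higher of 14, and Adamts1 and Adamts5 lower of 10. The thinned fit as a whole had 159 genes higher and 162 lower of 1428 tested. Of 13 Wnt pathway genes Fzd2 was higher and Wnt4 lower. Neither Hspa1b nor Wnt4 ran the same way in all 3 replicates. Among markers of further cell types, 2 of 7 melanoma genes, both neutrophil genes tested and 1 of 3 Schwann cell genes were lower, and none of 5 macrophage, 5 lung epithelial, 1 keratinocyte and 1 adipocyte genes was called. The neutrophil markers summed to 39.0 CPM in members and 888 CPM in the other cells of replicate 4, 10.1 and 6.62 CPM in replicate 5, and 4.19 and 18.3 CPM in replicate 6. Without replicate 4 neither neutrophil gene was called. Melanoma markers summed to 152 CPM in members and 45.3 CPM in the other cells of replicate 4. In replicates 5 and 6 they ran the other way, at 187 and 384 CPM and at 416 and 1134 CPM. Macrophage markers summed to 953 CPM in members and 915 CPM in the other cells of replicate 4, to 2.53 and 59.6 CPM in replicate 5, and to 7.55 and 73.4 CPM in replicate 6. Without replicate 4 the macrophage gene Lyz2 was lower.

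Members with a Vegfa UMI were then compared with members without it, in which at least 2 of the other 4 genes had been found. The comparison used 64 and 40 cells in replicate 4, 48 and 22 in replicate 5, and 299 and 89 in replicate 6. It is again a description, since Vegfa was part of the selection. Members with Vegfa needed just 1 of the other 4 genes, so the rule itself makes the arms unlike in these. With a Vegfa UMI, 83 of 5400 genes tested (1.54%) were higher and 69 (1.28%) lower. Depth was close in the arms, at medians of 4592.5 and 4360.5 UMIs in replicate 4, 5316 and 5698 in replicate 5, and 6209 and 5071 in replicate 6. With depth matched within libraries, 18 were higher and 6 lower, all 24 called before as well. Without replicate 4, 33 genes were called, and without replicate 5, 211.

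Hypoxia genes were among the largest rises. Ero1l had 473, 983 and 770 CPM with a Vegfa UMI and 26.9, 131 and 116 CPM without it in replicates 4, 5 and 6 (log2 fold change 3.00 ± 0.28). Bnip3, a mitophagy receptor, had 158, 139 and 184 CPM against 15.4, 15.4 and 31.3 CPM (2.77 ± 0.32). Slc2a1 had 190, 181 and 335 CPM against 15.4, 46.3 and 49.2 CPM (2.70 ± 0.31). The groups did not overlap for these 3 genes. Ankrd37 (2.92 ± 0.46), the lipid droplet gene Hilpda (2.75 ± 0.31) and Ndrg1 (2.71 ± 0.29) were higher in each library. In the hypoxia and glycolysis list 15 of 29 genes tested were higher and none lower, with a median of 1.07 against -0.05 over all genes. With matched depth 7 of 29 were higher, and without replicate 4, 7 of 31. With cells of 2 or more other markers left out, which kept all 3 replicates here, 7 of 28 were higher, and with the limit of 3, 16 of 29.

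HIF factors bind a short core sequence, so promoters were read for Vegfa and for the 3 genes of the list with the largest rises. The windows, RefSeq GRCm38.p6, minus strand, are chr17:46032328-46032627 for Vegfa at the most upstream of its starts in the table, chr14:45318523-45318822 for Ero1l (listed as Ero1a), chr8:45999801-46000100 for Ankrd37 and chr7:138909457-138909756 for Bnip3. Each runs 5′ to 3′ over 300 bases, and capitals mark ACGTG or GCGTG on either strand, which can overlap each other.
Vegfa: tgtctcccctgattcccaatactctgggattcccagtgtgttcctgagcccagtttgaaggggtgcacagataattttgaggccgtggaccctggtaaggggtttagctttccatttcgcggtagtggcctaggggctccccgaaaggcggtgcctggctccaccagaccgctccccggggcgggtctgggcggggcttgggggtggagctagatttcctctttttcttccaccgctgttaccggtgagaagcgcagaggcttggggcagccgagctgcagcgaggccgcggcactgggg
Ero1l: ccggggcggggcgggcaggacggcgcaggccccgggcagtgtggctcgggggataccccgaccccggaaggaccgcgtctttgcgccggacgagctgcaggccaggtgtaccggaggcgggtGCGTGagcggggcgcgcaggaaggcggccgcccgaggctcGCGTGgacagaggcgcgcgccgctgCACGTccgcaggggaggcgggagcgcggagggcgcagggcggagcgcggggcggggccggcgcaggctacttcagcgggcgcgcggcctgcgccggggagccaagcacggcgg
Ankrd37: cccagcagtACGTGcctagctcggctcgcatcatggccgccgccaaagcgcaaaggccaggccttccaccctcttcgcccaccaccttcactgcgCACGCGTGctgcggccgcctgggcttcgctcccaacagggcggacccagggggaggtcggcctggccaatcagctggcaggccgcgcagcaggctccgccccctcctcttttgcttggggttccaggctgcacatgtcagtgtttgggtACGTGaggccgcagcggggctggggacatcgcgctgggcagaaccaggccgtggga
Bnip3: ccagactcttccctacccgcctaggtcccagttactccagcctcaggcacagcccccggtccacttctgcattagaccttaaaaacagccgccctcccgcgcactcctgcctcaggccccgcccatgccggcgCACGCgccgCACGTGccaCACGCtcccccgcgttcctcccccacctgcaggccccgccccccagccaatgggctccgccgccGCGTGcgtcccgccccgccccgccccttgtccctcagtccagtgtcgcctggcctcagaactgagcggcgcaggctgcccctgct
The window of Vegfa held no match, that of Ero1l 3, that of Ankrd37 4 and that of Bnip3 5. Of the 31 list genes with a promoter in the table, 29 (93.55%) held a match in at least 1 window, against 46.7% of 27025 genes. Of the list genes called higher with Vegfa, 13 of 14 (92.86%) did. The list was chosen as hypoxia genes, so a high share says nothing of these cells. The 27025 are all genes with a promoter, tested here or not, and were not matched in base composition or number of windows. A match is a run of letters and no evidence of binding.

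Chemokine and stress genes were also higher with Vegfa. Cxcl2 had 172, 109 and 96.5 CPM against 19.2, 0 and 17.9 CPM (2.92 ± 0.40), and the prostaglandin synthase gene Ptgs2 had 96.0, 90.4 and 206 CPM against 19.2, 30.9 and 47.0 CPM (2.00 ± 0.31). The heat shock gene Hspa1b was higher by 2.98 ± 0.40, with 392 CPM in replicate 6 and 51.7 CPM in replicate 4. Cxcl1 (2.63 ± 0.45) and the phosphatase gene Dusp4 (2.33 ± 0.40) were higher as well. Of 20 immediate early and heat shock genes 3 were higher, and of 18 inflammatory genes 4. Of 19 activin and TGF-beta genes 3 were higher and 2 lower, and of 20 other collagens Col12a1 was lower.

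**Figure D5:**
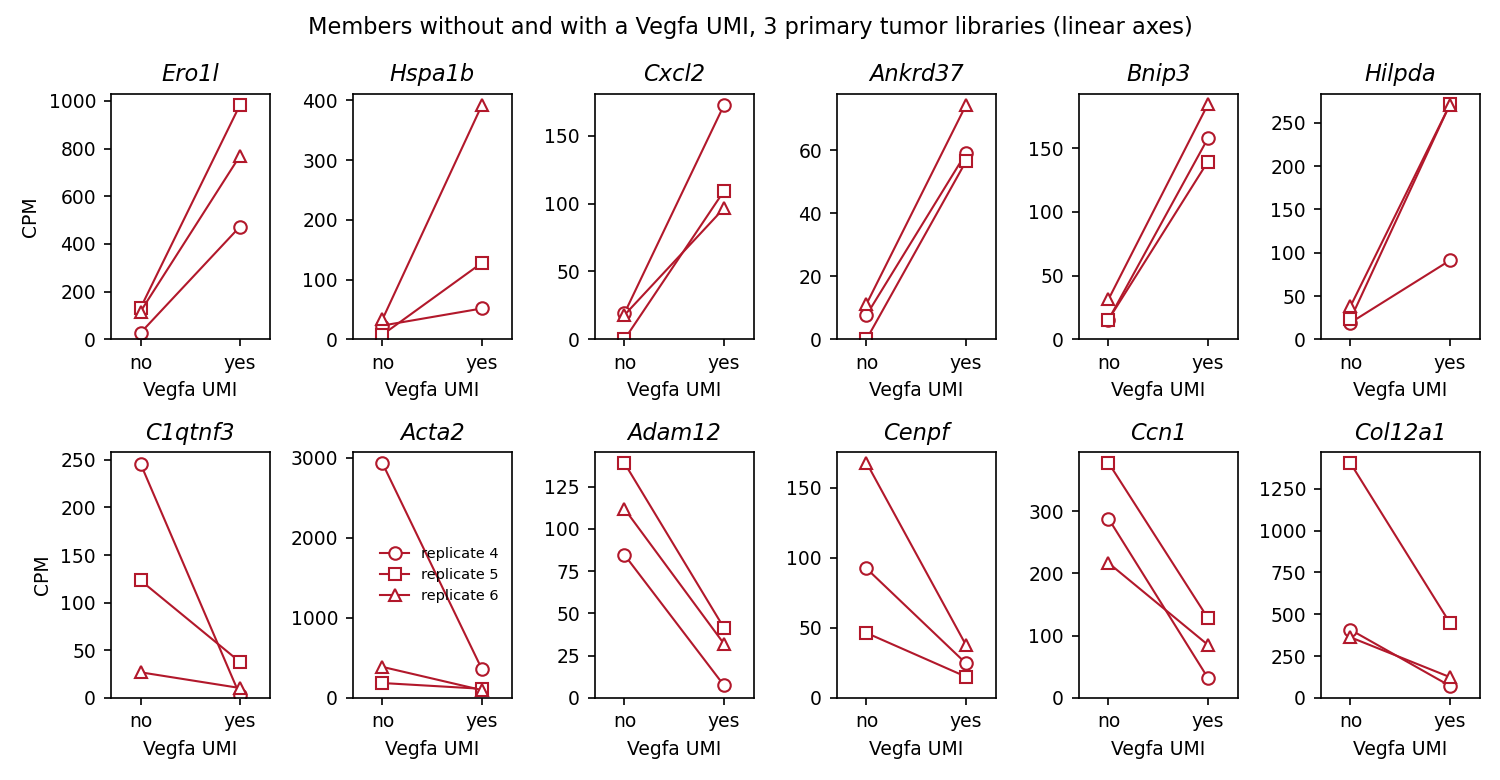
CPM (y axis, linear, 1 scale per gene) in members without and with a Vegfa UMI (x axis) for the 6 largest rises and 6 largest falls, with 1 line per primary tumor library. The lines of a gene run in the same direction in replicates 4, 5 and 6, which the choice of these genes required. The levels of replicate 4 without Vegfa stand apart for Acta2 at 2933 CPM.

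Some genes of matrix, contraction and division were among the 69 lower with Vegfa, of which 6 in all were also lower with matched depth. Without replicate 4, 10 genes in all were lower. Col12a1 had 71.4, 448 and 124 CPM with and 407.5, 1404 and 362 CPM without a Vegfa UMI (-1.94 ± 0.24), and it was also lower with matched depth. Of the microfibril and elastic fiber list 6 of 21 were lower, namely Fbn1, Eln, Mfap4, Fbln2, Loxl1 and Loxl2. Of the matricellular list 6 of 18 were lower, among them Ccn1 (-1.95 ± 0.28), Ccn2 (-1.93 ± 0.37) and Tnxb (-1.55 ± 0.23). Of the contractile list 6 of 14 were lower, with Acta2, the actin of myofibroblasts, at -2.20 ± 0.31 and Tagln at -1.90 ± 0.28. Of 7 cell cycle genes tested, Mki67, Birc5 and Cenpf were lower. Pericyte markers summed to 517 CPM with and 3918 CPM without Vegfa in replicate 4, 437 and 216 in replicate 5, and 422 and 774 in replicate 6. With matched depth none of 12 contractile genes was called, and without replicate 4 none of 14. With cells of 2 or more other markers left out none of 12 was called, and Acta2 had an adjusted p of 0.34 (edgeR), whereas with the limit of 3, Acta2, Tagln, Cnn2 and Tpm1 were lower.

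The rule did not use the lung metastasis, and cells that met it there were compared with cells with none of the 5 genes. Both arms were again selected on these genes within each library, so the calls and p-values there are a description and no independent test. Replicates 5 and 6 gave 26 and 13 cells that met the rule against 137 and 12 with none of the genes. Their medians were 9046.5 and 6359 UMIs against 3905 and 7059. Both replicates came from mice that also gave a primary tumor library. Of 7702 genes, 38 (0.493%) were higher and 64 (0.831%) lower, and at an unadjusted p under 0.05 there were 509. Without metastasis replicate 5, 22 genes were called, and without replicate 6, 53. With matched depth, which left replicate 5, 8 were higher and 17 lower. Higher in both tissues were 14 genes, 4.50% of those of the primary tumor and 36.8% of those of metastasis, among them Spp1, Thbs1, Ccn4, Col8a1, Col12a1 and Col15a1. Lower in both were 20 genes, 6.83% and 31.3%, among them C3, Pi16 and Clec3b. Called in opposite directions were Mmp3 and Scn7a, higher in the primary tumor and lower in metastasis, and Des, Dlk1, Myl9 and Notch3, lower in the primary tumor and higher in metastasis. Dlk1 and Myl9 missed the threshold in the primary tumor without replicate 4. Mmp3 had no UMI in metastasis cells with the genes. The arms of metastasis also differed in mesothelial markers, of which 2 or more were held by 3.85% and 15.4% of the cells with the genes and by 31.4% and 41.7% of the others. With cells of 2 or more other markers left out, which left replicate 5 alone in metastasis, C3 was at -2.16 and missed the threshold. With all cells of those libraries it was at -3.47. Col12a1 and Myl9 turned to -1.106 and -0.4565 in metastasis with such cells left out. Spp1 had 8256 and 1755 CPM against 252 and 608 CPM in metastasis (log2 fold change 3.38 ± 0.66, adjusted p = 0.00037, edgeR quasi-likelihood). With DESeq2 its adjusted p was 0.77, and without metastasis replicate 5 the difference was 1.56 and missed the threshold.

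Metastasis cells with the genes also had contractile transcripts. Acta2 had 3203 and 326 CPM against 172 and 25.3 CPM in replicates 5 and 6 (4.14 ± 0.60, adjusted p = 3.57e-07, edgeR), and 5 of 16 contractile genes were higher. Of the pericyte list 3 of 10 were higher, and 50% and 30.8% of these cells held 2 or more of its markers, against 20.4% and 25% of the others. With cells of 2 or more other markers left out, Acta2 was at 0.76, and with the limit of 3 at 2.33. With all cells of those libraries it was at 4.28 and 4.24. Metastasis had replicate 5 alone in these fits, so their spread came from the other tissues. The limits called 0 and 2 of 13 contractile genes and 0 and 1 of 20 collagens, and all cells of those libraries 5 of 14 at each limit and 4 and 3 of 20. Without replicate 5, Acta2 kept its direction at 3.70 and missed the threshold. Of the Pi16 list 6 of 17 were lower, and Pi16 had 9.32 and 0 CPM against 702.5 and 367 CPM. Of 20 other collagens 7 were higher, and of 18 matricellular genes 4 were higher and 1 lower. With matched depth 2 of 15 contractile, 1 of 10 pericyte, 1 of 20 collagen and 1 of 18 matricellular genes were higher, and 4 of 16 of the Pi16 list lower. Of 32 hypoxia and glycolysis genes none was called in metastasis with edgeR, while all 32 had fold changes above 0, with a median of 0.99 and 15 at an unadjusted p under 0.05. DESeq2 called none either. Without primary tumor replicate 4, Eno1 and Slc16a3 were called. The difference between primary tumor and metastasis was called for none of the 32 with edgeR or DESeq2, with a median of 0.01 and 3 at an unadjusted p under 0.05.

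The difference of the contrast between primary tumor and metastasis was fitted directly, a comparison added after seeing the data. It rests on the same selected arms and is a description too. Of 7702 genes, 65 (0.844%) were called. Acta2 (-5.04 ± 0.71), Tagln (-4.00 ± 0.71), Des (-4.43 ± 0.66) and Notch3 (-4.31 ± 0.79) had lower fold changes in the primary tumor. With cells of 2 or more other markers left out the Acta2 difference was -1.33, and with the limit of 3 it was -3.01. With all cells of those libraries it was -5.15 and -5.05. Metastasis had replicate 5 alone in these fits. Des is among the pericyte and smooth muscle markers by which cells were left out. Its values at these limits are thus partly set by that choice. Tagln and Des missed the threshold at both limits and were called with all cells. Abca8a (5.83 ± 0.83), Cxcl1 (4.47 ± 0.76), Scn7a (3.98 ± 0.78) and Pi16 (5.05 ± 0.97) had higher ones. Pi16 was lower in members of both tissues, so its value reflects a smaller fall. In unchallenged lung 1 library alone had 10 cells in each arm, and no test was made there.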

How the data were processed

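The authors sequenced sorted cells on the 10x Genomics platform and deposited UMI counts per gene and cell, made with Cell Ranger 6.1.1 on GRCm38 (mm10) and Seurat 3.2.2 per the labels, after removing cells by quantiles of detected features and of mitochondrial and ribosomal content. They also deposited the percent of mitochondrial UMIs per cell. A deposited table of log-normalized values was not used. Of 24 library names, 6 were not mapped to a sample and were left out, and 5 names whose barcodes and counts equalled those of another were dropped, among them a primary tumor library listed as replicate 8, identical to replicate 6. Primary tumor libraries shared 1 barcode with each other. No doublet caller was run. Libraries in the report held 303 to 25966 barcodes and 1777036 to 53506609 UMIs.

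UMI counts were summed per library and arm and tested with edgeR 4.0.16 (filterByExpr, TMM, quasi-likelihood, library block, Benjamini-Hochberg, threshold 0.05), in 1 fit over 3 primary tumor, 2 metastasis and 1 unchallenged lung library, without the 16 genes of the rule. Both arms come from cells of the same library and mouse, which is why they are paired. SEs were derived from the F statistic. CPM is scaled to the UMIs of an arm. Replicates are separate libraries, and replicate 1-3 joins 3 mice. DESeq2 1.42.0, thinning and depth matching were alternatives. The scripts were tested on simulated data. Named genes were the 5 genes, the 10 largest rises and falls per contrast among called genes with at least 20 CPM and the same sign in each library and with matched depth, up to 4 called genes per list (or 2 of the highest CPM), and genes the study names. The difference test named genes whose primary tumor libraries all lay on 1 side of all metastasis libraries. The members, gene lists and tests were chosen with earlier results of these data known. The settings that leave out cells with markers of other types were added after seeing the data, and the limit of 3 markers after the result with 2. Libraries left with fewer than 10 cells in an arm dropped out of a fit, so fits of all cells of the remaining libraries were added. Some genes that met the naming rule are not reported here.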

Additional observations from a re-analysis of the deposited data

Results flagged for a closer look

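The share of fibroblasts with 2 or more of the 5 genes at 2000 UMIs per cell was 70.29% in primary tumor replicate 6, far from the other primary tumor libraries by Dixon's criterion. Of 12 groups examined this was the only such value, and chance gives about 1 in 20. The replicate lost 278 of its 692 fibroblasts to thinning.

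The following genes had a contrast of members against other cells that differed between primary tumor and lung metastasis (log2 difference, primary tumor minus metastasis, edgeR). Contractile and pericyte genes were lower: Acta2 -5.042, Actg2 -5.268, Des -4.427, Myh11 -4.216, Myl9 -3.742, Notch3 -4.313, Tagln -3.996, Aoc3 -4.173 and Gucy1b1 -4.021. Col8a1 was at -4.616, Krt8 at -4.324 and Dlk1 at -8.369, the last with no UMI in either arm of metastasis replicate 6. Genes of the Pi16 program and of matrix had higher values: Pi16 5.051, Clec3b 3.811, Ly6a 3.347, Tnxb 3.132, Podn 3.736 and Abi3bp 4.104. Pi16, Clec3b and Ly6a were lower with the genes in both tissues. Tnxb, Podn and Abi3bp were lower in metastasis and not called in the primary tumor, so these values reflect falls in metastasis. Higher values were also seen for Abca8a at 5.835, Cxcl1 at 4.466, Saa3 at 3.551, Scn7a at 3.976 and Thbd at 3.675. In the reported fit Saa3 was lower in metastasis (-1.961) and not called in the primary tumor (1.59). Thbd was called in neither tissue, at 0.9907 in the primary tumor and -2.684 in metastasis. Mmp3 at 10.21, Cxcl10 at 11.4, Ccn5 at 8.834 and Gem at 7.786 had no UMI in metastasis cells with the genes, so that their fitted values are no bound.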

How the results depend on the processing

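Counts of called genes depended on the processing, and no gene called in the reported fits was called in the opposite direction under any alternative. Of the primary tumor contrast, 604 genes were called as reported. It was 396 with cells holding 2 or more markers of other types left out (1374 with all cells of the libraries left there, 1373 of those left at 3 markers). Matched depth gave 91, DESeq2 90, thinned cells 321 and cells without the top 10% of UMI totals 395. Melanoma genes under 0.1%, which left replicates 4 and 5, gave 134 (192 with all their cells). Run 3 alone, which is the fit without replicate 4, gave 1018. Replicate 4 was the only fitted library of run 2, so its differences from replicates 5 and 6 cannot be told apart from run. Leaving out cells of 2 or 3 other markers also took out primary tumor replicate 4 and metastasis replicate 6, and matched depth the latter. Of the metastasis contrast, 102 were called as reported, 40 and 57 with cells of 2 or 3 other markers left out (115 and 118 with all cells of those libraries), 25 with matched depth (53 without metastasis replicate 6), 17 with DESeq2 and 57 with at least 20 cells per arm. Of the difference, 65 were called as reported, then 18 and 25 (187 and 135 with all cells), 29 with matched depth, 14 with DESeq2 and 39 without the top 10%. Of the Vegfa contrast, 152 were called as reported, 50 with 2 other markers, 24 with matched depth and 41 with DESeq2. It was 287 without a filter, 7 thinned and 33 in run 3 alone, again the fit without replicate 4. With no replicate block, that is without the pairing of arms by library, 1 gene was called in the primary tumor, 1 in metastasis, 0 in the difference and 1 in the Vegfa contrast. Leaving out 1 library gave 150 to 1018 genes in the primary tumor (lowest without replicate 6, 151 without replicate 5, highest without replicate 4), 22 to 150 in metastasis (lowest without metastasis replicate 5, 34 without unchallenged lung replicate 5), 23 to 93 in the difference (lowest without unchallenged lung replicate 5) and 33 to 211 in the Vegfa contrast. The mean share of 55.96% was 66.76% with melanoma genes under 0.1% and 37.04% with at least 3 of the 5 genes. Of the called genes that could be tested, 0 to 6 changed direction under an alternative in the primary tumor, 0 to 13 in metastasis (13 of 89 with 2 other markers, 7 of 102 without replicate 5), 0 to 6 in the difference and none in the Vegfa contrast. Among the genes named by the rule they were Vegfd in the primary tumor (0.3289 without the top 10%), Ccl7 in metastasis (-5.433 without replicate 5, 4.009 without replicate 6), Ccn2 (-1.895 and -0.6027 with 2 or 3 other markers), Col12a1 (-1.106), Col5a3 (-6.516), Itga1 (-8.041) and Myl9 (-0.4565) there with 2 other markers, and Saa3 in the difference (-0.0871). The cause was not tested. The contrast in unchallenged lung and its difference from the primary tumor were not tested, as 1 library had enough cells, and no metastasis value was had with thinning, with at least 3 genes or with melanoma genes under 0.1%.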
